A study of Mus musculus with 48 samples.

Results

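The genes described here are 10 mouse genes of the NFAT and calcineurin pathway: Nfatc1, Nfatc2, Nfatc3, Nfatc4, Nfat5, Rcan1, Rcan2, Ppp3ca, Ppp3cb and Ppp3r1. They were picked by name, with earlier results of these data known, as the NFAT transcription factors, 2 regulators of calcineurin and 3 calcineurin subunits. All 10 of the 10 were present among the 47480 gene symbols of the count tables of both stages, and all 10 had enough counts to be tested in every comparison.

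Calcineurin is a phosphatase switched on by calcium, with a catalytic subunit encoded by Ppp3ca, Ppp3cb or Ppp3cc and a regulatory subunit encoded by Ppp3r1 or Ppp3r2. It removes phosphate from the proteins of Nfatc1, Nfatc2, Nfatc3 and Nfatc4, which then move into the nucleus, whereas the protein of Nfat5 answers to osmotic stress and does not bind calcineurin. Rcan1 and Rcan2 encode proteins that bind calcineurin and modulate it, and transcription of Rcan1 from an inner start is itself driven by NFAT.

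The samples were cells of the mouse myoblast line C2C12, either dividing (called myoblasts below) or after differentiation into muscle cells (called differentiated cells), grown on collagen-coated plates. They were stretched cyclically and equally in all directions of the plane in a Flexcell device for 1, 3 or 6 h, or kept unstretched for the same time, and their RNA was sequenced. This gave 12 groups of 4 libraries, 48 in all, and each time had its own non-stretched cells. Codes in the sample titles were read as experiments, though the titles do not say what the codes stand for. They were B27 and B31 for myoblasts and B25 and B28 for differentiated cells. Only replicate 4 of the differentiated cells stretched for 1 h was from B17. Replicates 7 and 8 belonged to B27 or B25 and replicates 9 and 10 to B31 or B28, except that at 1 h the stretched differentiated libraries were replicates 4, 7, 8 and 9. By the study's methods, the 4 myoblast samples of a group are 2 from each of 2 experiments, and the 4 differentiated samples come from 3 experiments; the title codes show 2 experiments for the differentiated groups other than the stretched one at 1 h. The tests treat the 4 libraries of a group as independent.

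Levels are given in CPM, which are counts per 1000000 counts of a library after TMM scaling (a factor per library that makes most genes equal between libraries). Stretched cells were compared with non-stretched cells of the same stage and time by edgeR on the counts, and the result is a log2 fold change, where 1 means doubling and -1 means halving, with its standard error (SE). Adjusted p-values were corrected by the Benjamini-Hochberg method over all genes tested in that comparison. A gene was called when its adjusted p was below 0.05 and its log2 fold change was at least 0.58 in size, which is 1.49-fold.

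Marker genes were looked at first, to see whether the stage labels fitted the cells. The summed CPM of Myog, Mef2c, Ckm, Acta1, Myh3, Tnnt1 and Tnnt3 averaged 11512, 11956 and 11780 in the non-stretched differentiated groups of 1, 3 and 6 h, and 12.3, 13.1 and 7.95 in the matching myoblast groups. Pax7, Myf5, Mki67, Top2a, Ccna2 and Ccnb1, markers of undifferentiated or dividing cells, summed to 412, 379 and 318 CPM in differentiated cells and 1706, 1803 and 1813 CPM in myoblasts. Without stretch and per kilobase (1000 bases) of exon, the highest of the first kind was Acta1, with a mean of 2895 CPM per kilobase in differentiated cells (SD 137), and of the second kind Ccna2, with 76.2 in myoblasts (SD 2.67). Ptprc, Pecam1 and Epcam, markers of blood, vessel and epithelial cells, together reached at most 0.229 CPM in any library. Per kilobase Pecam1 had the highest mean of them, 0.00716 CPM in myoblasts, where its range overlapped that of Epcam, and 0.00748 CPM in differentiated cells. Myog itself was called lower in myoblasts stretched for 3 h, with 1.95, 1.27, 2.96 and 3.22 CPM without stretch and 1.41, 1.31, 1.24 and 1.38 CPM with stretch, and these ranges overlapped. Its log2 fold change there was -0.82 (SE 0.234, edgeR adjusted p 0.0167), and it was no longer called without non-stretched replicate 9 (-0.69, edgeR adjusted p 0.0507) or 10 (-0.62, edgeR adjusted p 0.0656). The median log2 fold change of the 6 muscle markers tested in myoblasts was -0.63 at 1 h, -0.20 at 3 h and -0.15 at 6 h, and without non-stretched replicate 10 the first was -0.20. At 1 h edgeR counted 0 of these 6 by adjusted p below 0.05 alone, DESeq2 2, and 3 had an unadjusted p below 0.05 by edgeR, where 19% of all genes did. At 3 h, where Nfatc2 was called higher, 1 of the 6 markers of undifferentiated or dividing cells was higher and 1 lower in myoblasts by edgeR adjusted p below 0.05 alone (31.9% of all genes passed), with a median of -0.03. In differentiated cells at 3 h 2 of these 6 were higher (22.2% of all genes passed), with a median of 0.11, and their summed CPM averaged 379 without and 412 with stretch, with overlapping ranges. That count was 1 to 3 without a library and 0 with all libraries of the stage in 1 model, and the part of these markers in the rise of Nfatc2 was not tested. At 6 h in myoblasts 5 of the 6 markers of undifferentiated or dividing cells passed edgeR adjusted p below 0.05 alone, 1 higher and 4 lower, where 27.2% of all genes passed. Their median log2 fold change was -0.14, and their summed CPM averaged 1813 without and 1645 with stretch. Nfatc4, Rcan2 and Ppp3cb were lower in the same comparison, and the part of these markers in that was not tested. At 6 h in differentiated cells, where Nfatc2, Nfatc4, Rcan2 and Ppp3cb were lower, the summed CPM of the muscle markers averaged 11780 (SD 354) without and 10996 (SD 448) with stretch, ranges that overlapped. The median of the 7 muscle markers tested was -0.11 there, edgeR counted 0 by adjusted p alone, DESeq2 1, and 2 had an unadjusted p below 0.05 by edgeR (35.8% of all genes); their part was not tested either. In such bulk samples fewer cells of a type and less RNA per cell cannot be told apart.

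Levels of different genes were compared per kilobase of exon, in the 12 non-stretched libraries of a stage. In myoblasts Ppp3r1 stood highest with a mean of 49.5 CPM per kilobase (SD 1.33), followed by Ppp3cb (14.7, SD 0.311), Nfat5 (13.1, SD 1.54), Nfatc3 (10, SD 0.230) and Rcan1 (8.64, SD 0.283). Ppp3ca (6.07, SD 0.248), Nfatc1 (3.49, SD 0.126), Rcan2 (2.24, SD 0.232), Nfatc4 (0.694, SD 0.0870) and Nfatc2 (0.0810, SD 0.0205) came after them. The ranges of neighbours in this order did not overlap, apart from Ppp3cb and Nfat5.

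Differentiated cells had Ppp3r1 at 62.1 CPM per kilobase (SD 1.77), Ppp3cb at 16.6 (SD 0.361), Nfat5 at 15.0 (SD 2.34), Rcan1 at 13.3 (SD 0.847) and Ppp3ca at 11.8 (SD 0.371). Below them were Rcan2 at 11.5 (SD 0.718), Nfatc3 at 7.63 (SD 0.229), Nfatc4 at 2.49 (SD 0.133), Nfatc1 at 2.43 (SD 0.133) and Nfatc2 at 0.0661 (SD 0.00847). Ranges overlapped between neighbours from Ppp3cb down to Rcan2 and between Nfatc4 and Nfatc1, while Ppp3r1 at the top and Nfatc2 at the bottom stood clear. Every non-stretched differentiated library lay above every non-stretched myoblast library for Rcan2, Nfatc4, Ppp3ca, Rcan1, Ppp3r1 and Ppp3cb, and below it for Nfatc1 and Nfatc3. That is 6 and 2 of the 10 genes, where 34% of all 16582 genes were higher in this way and 29.5% lower, or 63.6% together. These stage differences in level were not tested, and each stage came from its own experiments.

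**Figure D1:**
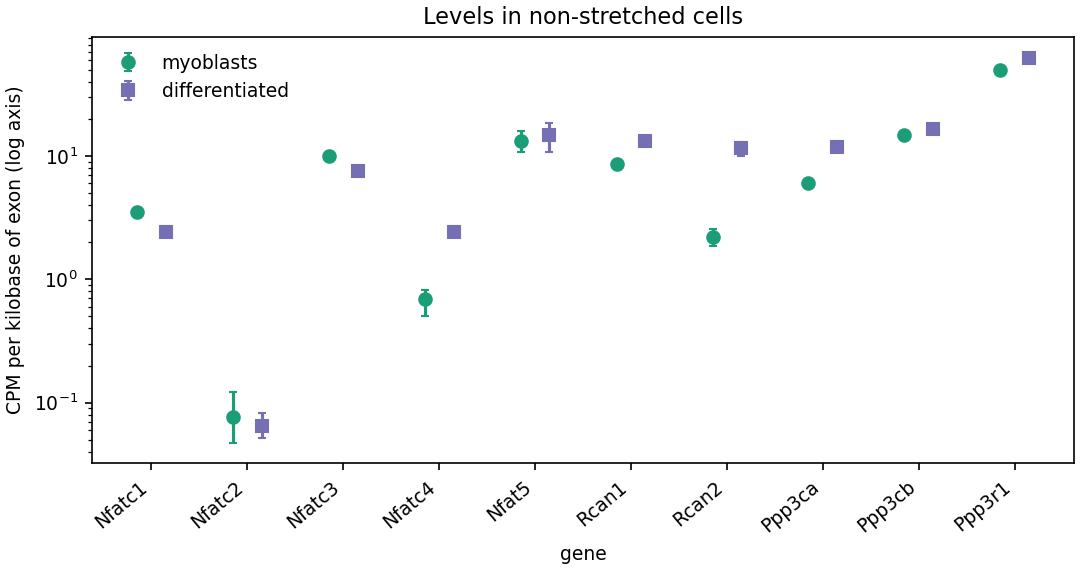
Median and range of each of the 10 genes in the 12 non-stretched libraries of each stage, per kilobase of exon on a log axis. In myoblasts the means ran from 0.0810 for Nfatc2 to 49.5 for Ppp3r1.

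By both limits edgeR called 0 of the 10 genes in myoblasts at 1 h, where 1.25% of all 14938 genes tested were called. DESeq2 also called 0 there, and 3 of the 10 had an unadjusted p below 0.05 by edgeR, where 19% of all genes did, and 2 by DESeq2. At 3 h 1 of the 10, Nfatc2, was called in myoblasts, against 1.71% of all genes. At 6 h edgeR called 0, against 2.17% of all genes, DESeq2 called 0 as well, and 6 of the 10 had an unadjusted p below 0.05 by either tool, beside 38.9% of all genes by edgeR. The median log2 fold change of the 10 genes was 0.04, 0.06 and 0.06 at 1, 3 and 6 h, beside 0.00, -0.01 and 0.00 for all genes tested.

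In differentiated cells at 1 h edgeR called 0 of the 10 genes, against 0.27% of all 15538 genes tested. DESeq2 called 0 too, and only Nfatc1, 1 of the 10, had an unadjusted p below 0.05 by edgeR (8.92% of all genes), as 1 had by DESeq2. At 3 h and at 6 h Nfatc2 was the 1 gene of the 10 called, against 1.63% and 2.04% of all genes. Medians of the 10 genes were 0.03, 0.03 and -0.07 at 1, 3 and 6 h, where the medians of all genes were 0.00 at each time.

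Many differences were small and stayed under the fold limit. By adjusted p below 0.05 alone, edgeR counted 1 of the 10 genes (higher) in myoblasts at 1 h, where 5.92% of all genes passed, 6 (5 higher, 1 lower) at 3 h, where 31.9% passed, and 5 (2 higher, 3 lower) at 6 h, where 27.2% passed. In differentiated cells the same limit gave 0 by edgeR at 1 h (0.663% of all genes), 3 (2 higher, 1 lower) at 3 h (22.2%) and 6 (2 higher, 4 lower) at 6 h (22.3%). Stretched and non-stretched libraries did not overlap for 1, 5 and 6 of the 10 genes in myoblasts at 1, 3 and 6 h. The same held for 13.3%, 30.8% and 28.7% of all genes tested there. In differentiated cells it held for 2, 3 and 6 of the 10, beside 6.37%, 25.9% and 26.4% of all genes. Whether the 10 genes differed from other genes in these shares was not tested.

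**Figure D2:**
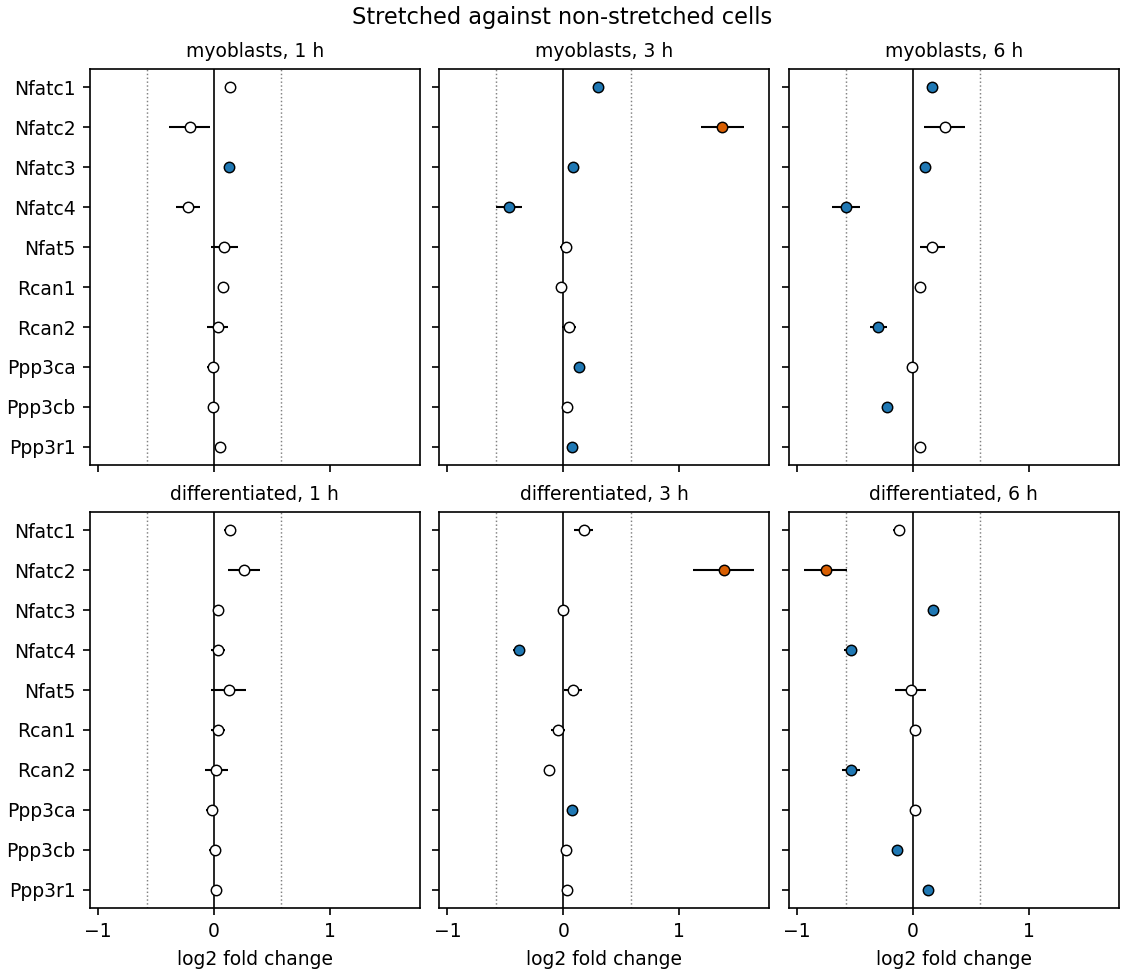
Log2 fold change with SE of the 10 genes in each comparison; orange marks called genes, blue marks edgeR adjusted p below 0.05 with a smaller fold change, white marks the rest, and dotted lines stand at 0.58 and -0.58. Nfatc2 reached 1.37 in myoblasts and 1.38 in differentiated cells at 3 h.

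Sequences from 250 bases before to 50 bases after transcript starts were searched for GGAAA, the core bound by NFAT proteins, which begins like the GGAA of ETS sites, for TGANTCA, bound by AP-1, and for TGACGTCA, bound by CREB, on both strands. From a set of RefSeq windows (build GRCm38.p6), 13 windows of 300 bases were used for 8 of the 10 genes. No window of Nfatc1 or Ppp3ca was used. This does not mean that RefSeq or the full set of windows lacks a start for them, and their motifs were not examined. Among all 32851 windows 61.3% held GGAAA or its reverse TTTCC, 7.81% held TGANTCA and 1.79% held TGACGTCA. A match describes the sequence alone. The windows of Nfatc2, Nfatc4 and Rcan1 are printed where these genes are described, because Nfatc2 and Nfatc4 differed most with stretch and Rcan1 has an inner start driven by NFAT.

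Nfatc2 had 3 matches to GGAAA in its upstream window, at -239, -200 and -175 from the start, and 1 in the window of its inner start, at -187. The windows lie on the minus strand, at chr2:168601608-168601907 and at chr2:168590316-168590615 (RefSeq, GRCm38.p6), and capitals mark the matches.
Nfatc2 window 1: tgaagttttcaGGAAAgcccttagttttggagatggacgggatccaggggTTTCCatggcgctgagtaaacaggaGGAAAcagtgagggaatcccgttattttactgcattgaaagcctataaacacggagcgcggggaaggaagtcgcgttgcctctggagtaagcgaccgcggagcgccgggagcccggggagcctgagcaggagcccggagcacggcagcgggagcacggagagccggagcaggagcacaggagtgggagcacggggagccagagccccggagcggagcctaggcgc
Nfatc2 window 2: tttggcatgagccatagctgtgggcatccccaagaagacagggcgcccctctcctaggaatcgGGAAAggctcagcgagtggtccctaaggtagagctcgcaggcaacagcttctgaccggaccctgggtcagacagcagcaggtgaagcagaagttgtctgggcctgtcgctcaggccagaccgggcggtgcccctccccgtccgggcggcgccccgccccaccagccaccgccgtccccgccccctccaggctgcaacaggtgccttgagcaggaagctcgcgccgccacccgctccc

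Nfatc2 (ENSMUSG00000027544; GENCODE vM21 on GRCm38, chr2:168476410-168601657) was the least abundant of the NFAT factors, with 19 to 181 counts in a library. In myoblasts at 3 h it stood at 0.770, 0.661, 1.13 and 1.29 CPM in non-stretched replicates 7, 8, 9 and 10 and at 2.51, 2.63, 2.84 and 2.0 CPM in the stretched ones. All stretched libraries lay above all non-stretched ones, the highest being stretched replicate 9 and the lowest non-stretched replicate 8. Nfatc2 rose there by a log2 fold change of 1.37 (adjusted p by edgeR 1.39e-04). Taken within experiments, the log2 ratio of the means was 1.85 in B27 and 1.00 in B31. The non-stretched libraries of B31 were higher than those of B27, and the rise was present in both experiments.

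In differentiated cells at 3 h Nfatc2 had 0.622, 0.649, 0.548 and 0.776 CPM without stretch and 1.24, 1.10, 2.45 and 1.98 CPM with stretch. The groups did not overlap, and stretched replicates 9 and 10, both of B28, were the highest. Its log2 fold change was 1.38 (SE 0.262, edgeR adjusted p 0.00422), and within experiments it was 0.88 in B25 and 1.74 in B28.

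At 6 h the direction of Nfatc2 in differentiated cells was the opposite one. Non-stretched libraries held 0.714, 0.784, 0.868 and 0.701 CPM and stretched libraries 0.413, 0.552, 0.343 and 0.510 CPM. Every stretched library was below every non-stretched library, with stretched replicate 9 lowest. Nfatc2 fell by both limits, with a log2 fold change of -0.75 (SE 0.185, edgeR adjusted p 0.0159), made up of -0.63 in B25 and -0.88 in B28. In myoblasts at 6 h the values were 0.684, 0.494, 0.824 and 0.802 CPM without stretch and 0.814, 0.974, 0.776 and 0.801 CPM with stretch. Those ranges overlapped, and the log2 fold change of 0.27 (SE 0.177, edgeR adjusted p 0.284) did not pass.

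At 1 h Nfatc2 was not called in either stage. Myoblasts showed 0.759, 0.932, 0.911 and 1.03 CPM without stretch and 0.615, 0.665, 1.00 and 0.826 CPM with stretch, and differentiated cells 0.662, 0.659, 0.623 and 0.779 CPM without stretch and 0.815, 0.868, 0.799 and 0.786 CPM with stretch. The myoblast groups overlapped, while the stretched differentiated libraries all lay slightly above the non-stretched ones. The log2 fold changes were -0.21 (SE 0.178, edgeR adjusted p 0.598) and 0.26 (SE 0.139, edgeR adjusted p 0.678). Leaving out stretched replicate 4 of the differentiated cells, the only library of experiment B17, kept the latter at 0.26 (edgeR adjusted p 0.802).

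**Figure D3:**
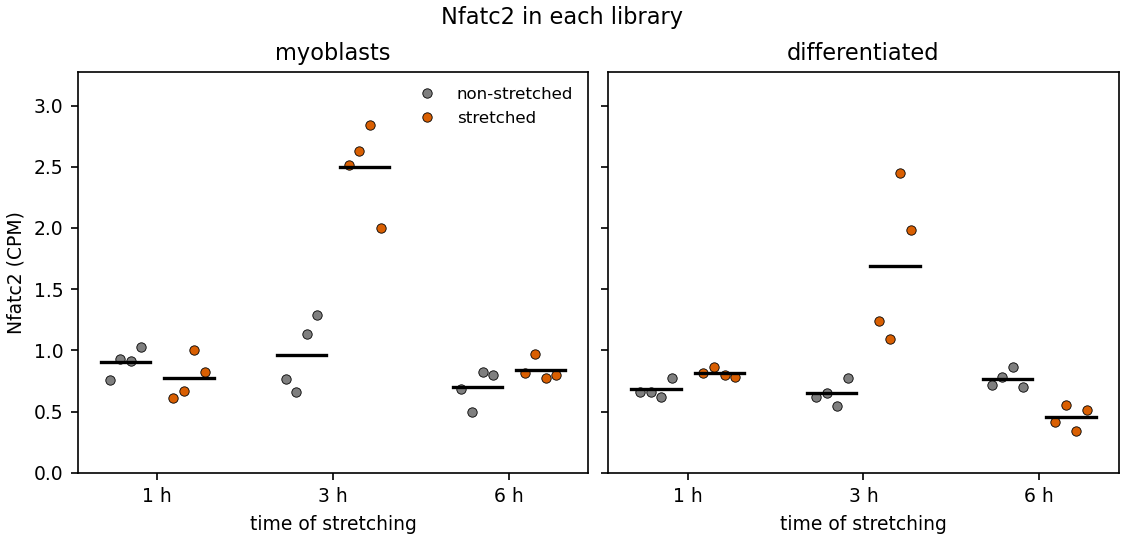
Nfatc2 in each of the 48 libraries; black bars are group means. At 3 h stretched libraries held 2.0 to 2.84 CPM (myoblasts) and 1.10 to 2.45 CPM (differentiated cells).

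Nfatc4 had 3 matches to GGAAA, at -186, -119 and -29, in its window on the plus strand at chr14:55824545-55824844 (RefSeq, GRCm38.p6), and capitals mark them.
Nfatc4 window 1: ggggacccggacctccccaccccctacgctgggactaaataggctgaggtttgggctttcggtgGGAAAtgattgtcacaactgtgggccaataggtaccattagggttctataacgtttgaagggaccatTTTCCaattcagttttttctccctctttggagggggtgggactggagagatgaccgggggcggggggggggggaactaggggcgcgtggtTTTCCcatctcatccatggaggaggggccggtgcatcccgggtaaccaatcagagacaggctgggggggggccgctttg

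Nfatc4 (ENSMUSG00000023411; chr14:55823144-55833943) was lower in stretched cells of both stages at 3 and 6 h. In differentiated cells at 6 h it held 15.0, 15.8, 13.9 and 13.7 CPM without stretch and 9.68, 10, 10.3 and 10.3 CPM with stretch. The groups stood apart, with a log2 fold change of -0.53 (SE 0.0553, edgeR adjusted p 3.63e-04) that stayed inside the fold limit, so Nfatc4 was not called. Within experiments it was -0.64 in B25 and -0.42 in B28. At 3 h the values were 15.4, 14.8, 14.1 and 14 CPM without stretch and 10.6, 10.7, 11.8 and 11.6 CPM with stretch, again without overlap. This gave a log2 fold change of -0.38 (SE 0.0534, edgeR adjusted p 9.29e-04), with -0.51 in B25 and -0.27 in B28. At 1 h Nfatc4 stood at 13.4 to 15.4 CPM in the non-stretched and 13.9 to 15.4 CPM in the stretched differentiated libraries, which overlapped (log2 fold change 0.04, edgeR adjusted p 0.940).

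In myoblasts, where Nfatc4 had 124 to 301 counts in a library, the 6 h values were 4.09, 4.18, 2.90 and 3.59 CPM without stretch and 2.60, 2.56, 2.22 and 2.37 CPM with stretch. The lowest non-stretched library, replicate 9, was still above the highest stretched one. Its log2 fold change of -0.58 (SE 0.122, edgeR adjusted p 0.00536) was just short of the limit before rounding, and Nfatc4 was therefore not called. It became called without non-stretched replicate 9 (-0.68), non-stretched replicate 10 (-0.59), stretched replicate 7 (-0.62) or stretched replicate 8 (-0.60), with library totals in place of TMM (-0.60), and with all libraries of the stage in 1 model (-0.58). The 2 experiments gave -0.68 in B27 and -0.50 in B31.

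Myoblasts at 3 h had Nfatc4 at 3.95, 4.75, 3.98 and 4.29 CPM without stretch and 3.34, 3.39, 3.27 and 2.31 CPM with stretch. No stretched library reached a non-stretched one, and stretched replicate 10 was the lowest. The log2 fold change was -0.47 (SE 0.115, edgeR adjusted p 0.00726), with -0.37 in B27 and -0.57 in B31. At 1 h the groups overlapped, at 3.57 to 4.63 CPM without and 3.30 to 4.02 CPM with stretch, and the log2 fold change of -0.22 (adjusted p by edgeR 0.257) did not pass.

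Nfatc1 (ENSMUSG00000033016; chr18:80606205-80713071) was higher in stretched myoblasts at 3 h. Its values were 26.4, 26.4, 28.2 and 26.4 CPM without stretch and 33.2, 34.3, 35.3 and 30.0 CPM with stretch. The groups did not overlap, and the log2 fold change was 0.30 (SE 0.0471, edgeR adjusted p 3.99e-04), below the fold limit. It was 0.35 in B27 and 0.26 in B31. At 6 h Nfatc1 ran from 25.3 to 26.2 CPM without stretch and from 27.2 to 30.1 CPM with stretch, again apart (log2 fold change 0.17, edgeR adjusted p 0.00742). The 1 h values, 24.7 to 26.6 and 26.4 to 28.9 CPM, overlapped, with a log2 fold change of 0.14 (SE 0.0413, edgeR adjusted p 0.0868).

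In differentiated cells no log2 fold change of Nfatc1 passed the limit on adjusted p. At 1 h it had 16.9 to 18.2 CPM without stretch and 18.8 to 19.9 CPM with stretch, groups that did not overlap. At 3 h the ranges were 18.0 to 20 and 18.0 to 24.6 CPM, and at 6 h 16.9 to 19.1 and 16.2 to 17.4 CPM, both with overlap. The log2 fold changes were 0.14 (edgeR adjusted p 0.343), 0.17 (0.172) and -0.12 (0.113) in that order. Nfatc1 passed adjusted p at 3 h without stretched replicate 8 (0.25, edgeR adjusted p 0.0356) and at 6 h without non-stretched replicate 9 (-0.16, edgeR adjusted p 0.0459).

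Nfatc3 (ENSMUSG00000031902; chr8:106058840-106130537) was the most abundant of the calcineurin-bound NFAT genes per kilobase and differed little. In myoblasts the non-stretched libraries had 115 to 118, 114 to 120 and 115 to 123 CPM at 1, 3 and 6 h and the stretched ones 124 to 131, 122 to 128 and 124 to 130 CPM. The stretched group lay above the other at every time in myoblasts, by narrow margins. Log2 fold changes were 0.13 (edgeR adjusted p 0.0256), 0.08 (0.0292) and 0.11 (0.0261). With library totals in place of TMM none of the 3 passed (0.10, 0.03 and 0.09; edgeR adjusted p 0.228, 0.407 and 0.0568), and leaving out 1 library ended the pass in 6, 4 and 5 of 8 cases, with an edgeR adjusted p of at most 0.0844, 0.0956 and 0.0832. So the 1 gene counted by adjusted p alone in myoblasts at 1 h depended on the scaling. In differentiated cells at 6 h the values were 92.7, 92.8, 86.3 and 91.9 CPM without stretch and 104, 99.4, 107 and 99.5 CPM with stretch. These groups stood apart, with a log2 fold change of 0.17 (SE 0.0369, edgeR adjusted p 0.00862), 0.13 in B25 and 0.22 in B28. At 1 and 3 h the differentiated groups overlapped and the log2 fold changes of Nfatc3 were 0.04 (edgeR adjusted p 0.883) and -0.01 (0.883).

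Nfat5 (ENSMUSG00000003847; chr8:107293470-107379517) never passed a limit. It varied widely between replicates, for example from 204 to 306 CPM in myoblasts stretched for 1 h and from 227 to 341 CPM in differentiated cells kept unstretched for 6 h. Stretched and non-stretched ranges overlapped in all comparisons. The log2 fold changes of Nfat5 were 0.09 (SE 0.114), 0.02 (SE 0.0506) and 0.17 (SE 0.109) in myoblasts at 1, 3 and 6 h. In differentiated cells they were 0.13 (SE 0.151), 0.08 (SE 0.0752) and -0.02 (SE 0.135). At 6 h in differentiated cells the experiments pointed in opposite directions, -0.34 in B25 and 0.31 in B28.

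Ppp3cb (ENSMUSG00000021816; chr14:20499364-20546573) is a catalytic subunit gene and had lower values after 6 h of stretch. Myoblasts had 128, 131, 132 and 131 CPM without stretch and 108, 114, 106 and 116 CPM with stretch, and differentiated cells 146, 148, 150 and 141 CPM and 131, 133, 134 and 135 CPM. In neither stage did the groups overlap. The log2 fold changes were -0.22 (SE 0.0318, edgeR adjusted p 7.04e-04) and -0.13 (SE 0.0301, edgeR adjusted p 0.0107), both well inside the fold limit. Within experiments Ppp3cb gave -0.22 in B27 and -0.25 in B31, and -0.15 in B25 and -0.11 in B28. At 1 and 3 h the groups of Ppp3cb overlapped in both stages, and the log2 fold changes ran from -0.01 in myoblasts at 1 h to 0.03 at 3 h in myoblasts and in differentiated cells. Ppp3cc, another catalytic subunit gene, which is not among the 10 and was added after its values were seen, was lower in myoblasts at 6 h as well, with 12.9, 15.2, 13.1 and 14.6 CPM with stretch and higher values, up to 18.1 CPM, in all 4 libraries without stretch. Its log2 fold change was -0.26 (SE 0.0605, edgeR adjusted p 0.00887). For Ppp3cc in differentiated cells at 6 h it was -0.14 (edgeR adjusted p 0.0691).

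Ppp3ca (ENSMUSG00000028161; chr3:136670124-136937727) was slightly higher at 3 h. Non-stretched myoblasts had 61.6, 60.2, 63.9 and 63.2 CPM and stretched ones 70.5, 68.0, 69.9 and 67.5 CPM, and differentiated cells had 118, 118, 113 and 116 CPM and 124, 122, 121 and 123 CPM. Both pairs of groups stood apart, with log2 fold changes of 0.14 (SE 0.0282, edgeR adjusted p 0.00248) and 0.08 (SE 0.0248, edgeR adjusted p 0.0445). The second no longer passed when any 1 of the 8 libraries was left out (edgeR adjusted p up to 0.131), with library totals in place of TMM (0.275) or with no filter (0.148). At 1 and 6 h the groups of Ppp3ca overlapped in both stages, with log2 fold changes between -0.02 and 0.01.

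Ppp3r1 (ENSMUSG00000033953; chr11:17159263-17200375), the regulatory subunit gene, was higher in stretched differentiated cells at 6 h. The values were 208, 201, 201 and 204 CPM without stretch and 229, 219, 222 and 223 CPM with stretch. They did not overlap, and the log2 fold change was 0.13 (SE 0.0298, edgeR adjusted p 0.0107), at 0.13 in B25 and 0.14 in B28. With library totals in place of TMM its edgeR adjusted p was 0.0505. In myoblasts Ppp3r1 reached a log2 fold change of 0.08 (adjusted p by edgeR 0.0476) at 3 h with overlapping groups, which was lost in 7 of 8 sets with a library left out (edgeR adjusted p up to 0.150) and with library totals in place of TMM (0.474), and 0.06 (edgeR adjusted p 0.0799) at 6 h with groups apart, where DESeq2 gave an adjusted p of 0.0474. At 1 h in both stages and at 3 h in differentiated cells the groups of Ppp3r1 ran from 157 to 168, from 190 to 205 and from 195 to 210 CPM over stretched and non-stretched libraries together. Of its exon stretches of 31 bases 14.5% occur in other genes too, most often in Wdr92, so its counts are uncertain to that extent.

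Rcan1 had no match to any of these motifs at its upstream start, at chr16:92466120-92466419 on the minus strand (RefSeq, GRCm38.p6). The window of its inner start, at chr16:92400029-92400328 on the same strand, held 3 matches to GGAAA, at -227, -193 and -163, with TGACGTCA at -175 and TGANTCA at -110. Rcan1 was the only one of the 8 genes with all of these motifs in 1 window, though the share of all windows that hold all of them is not given here. Capitals mark the matches.
Rcan1 window 1: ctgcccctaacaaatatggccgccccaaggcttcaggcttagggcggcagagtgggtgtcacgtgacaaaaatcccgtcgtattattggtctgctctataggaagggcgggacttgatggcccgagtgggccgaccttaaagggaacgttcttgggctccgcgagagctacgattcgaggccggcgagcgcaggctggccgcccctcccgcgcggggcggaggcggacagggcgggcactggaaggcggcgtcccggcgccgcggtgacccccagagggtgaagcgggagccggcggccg
Rcan1 window 2: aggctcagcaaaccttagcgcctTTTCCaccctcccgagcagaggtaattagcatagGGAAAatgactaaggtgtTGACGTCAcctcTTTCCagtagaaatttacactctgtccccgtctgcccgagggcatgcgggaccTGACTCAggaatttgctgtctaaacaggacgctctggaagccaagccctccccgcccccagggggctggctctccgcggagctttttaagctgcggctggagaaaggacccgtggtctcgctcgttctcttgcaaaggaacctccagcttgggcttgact

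Rcan1 (ENSMUSG00000022951; chr16:92391953-92470867), whose inner start is driven by NFAT (the window of that start is printed above), passed no limit at any time. In myoblasts the values at 1 h were 28.2, 27.4, 26.6 and 27 CPM without stretch and 29.4, 27.3, 29.5 and 29.0 CPM with stretch. In differentiated cells at 1 h they were 40.8, 44.3, 37.9 and 38.4 CPM and, for stretched replicates 4, 7, 8 and 9, 39.8, 42.2, 44.2 and 38.9 CPM. The groups overlapped, as they did at 3 and 6 h in both stages. Log2 fold changes of Rcan1 in myoblasts were 0.08 (SE 0.0349), -0.02 (SE 0.0297) and 0.06 (SE 0.0428) at 1, 3 and 6 h. Those in differentiated cells were 0.03 (SE 0.0610), -0.05 (SE 0.0602) and 0.01 (SE 0.0433), and the lowest of the 6 edgeR adjusted p-values was 0.269. Leaving out stretched replicate 4 moved the 1 h value of the differentiated cells to 0.05. The count tables give 1 value per gene, so transcripts from the inner start could not be counted apart.

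Rcan2 (ENSMUSG00000039601; chr17:43801351-44039516) was lower in stretched cells at 6 h in both stages. Differentiated cells had 52.2, 52.4, 43.7 and 56.3 CPM without stretch and 31.8, 35.3, 36.2 and 38.3 CPM with stretch, and the groups did not overlap. The log2 fold change was -0.53 (SE 0.0773, edgeR adjusted p 0.00161), with -0.64 in B25 and -0.42 in B28. This was inside the fold limit, and Rcan2 became called only without non-stretched replicate 9, at -0.60. Myoblasts had 9.42, 9.78, 10.7 and 10.9 CPM without stretch and 7.14, 8.36, 8.38 and 8.99 CPM with stretch. All stretched values were below all non-stretched ones, with a log2 fold change of -0.30 (SE 0.0743, edgeR adjusted p 0.0125), -0.31 in B27 and -0.32 in B31.

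At 1 and 3 h Rcan2 did not pass. Among differentiated cells stretched for 1 h, replicate 4 had 39.1 CPM where replicates 7, 8 and 9 had 57.1, 54.4 and 51.7 CPM, and the non-stretched libraries had 48.7 to 50.4 CPM. Replicate 4 was thus below and the other stretched libraries above the non-stretched group. The log2 fold change of Rcan2 was 0.02 with all libraries and 0.13 (edgeR adjusted p 0.275) without replicate 4. At 3 h it was 0.05 in myoblasts and -0.12 (adjusted p by edgeR 0.106) in differentiated cells, where B25 gave -0.26 and B28 gave 0.01.

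**Figure D4:**
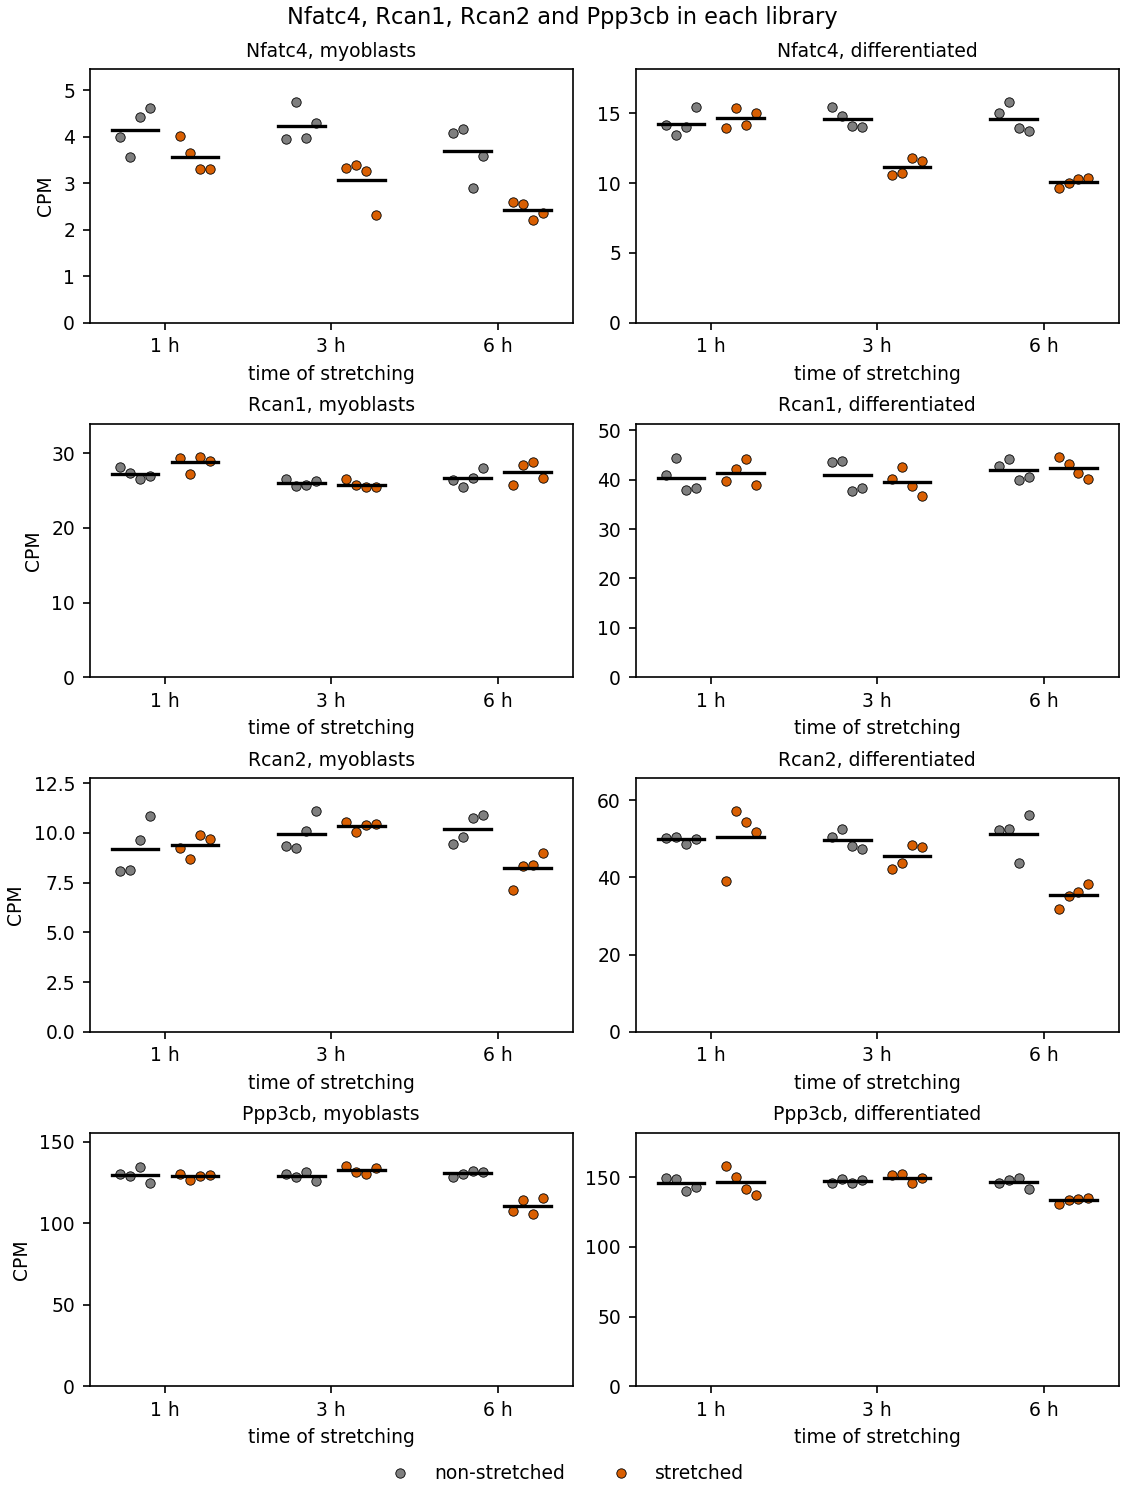
Nfatc4, Rcan1, Rcan2 and Ppp3cb in each library, with group means as bars. At 6 h in differentiated cells Rcan2 had 31.8 to 38.3 CPM with stretch and 43.7 to 56.3 CPM without.

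Whether a stretch effect differed between times was tested as the difference of the log2 fold changes in 1 model of all 24 libraries of a stage, by edgeR with adjusted p below 0.05 alone. In myoblasts 2 of the 10 genes differed between 6 and 1 h, where 21.1% of all genes did, and 3 between 6 and 3 h, where 26.5% did. Ppp3cb was lower at 6 h than at 1 h by -0.21 (SE 0.0382, edgeR adjusted p 3.12e-04) and than at 3 h by -0.24 (SE 0.0383, edgeR adjusted p 4.04e-05). Nfatc2 differed between 6 and 3 h by -1.09 (SE 0.271, edgeR adjusted p 0.00386). Rcan2 differed by -0.33 from 1 h (SE 0.117, edgeR adjusted p 0.0456) and by -0.34 from 3 h (SE 0.116, edgeR adjusted p 0.0319), and both of these were lost when certain single libraries were left out.

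In differentiated cells 4 of the 10 differed between 6 and 1 h (11.9% of all genes) and 5 between 6 and 3 h (12% of all genes). For Nfatc2 the difference between 6 and 3 h was -2.14 (SE 0.300, edgeR adjusted p 1.03e-04) and between 6 and 1 h -1.02 (SE 0.308, edgeR adjusted p 0.0332). Nfatc4 and Rcan2 differed between 6 and 1 h by -0.57 (SE 0.0775, edgeR adjusted p 6.47e-05) and -0.56 (SE 0.122, edgeR adjusted p 0.00455). Rcan2 also differed between 6 and 3 h, by -0.41 (edgeR adjusted p 0.0307). Nfatc3 differed between 6 and 3 h by 0.18 (edgeR adjusted p 0.00872) and Nfatc1 by -0.29 (edgeR adjusted p 0.0488). Ppp3cb differed by -0.15 from 1 h (edgeR adjusted p 0.0494) and by -0.16 from 3 h (edgeR adjusted p 0.0357). Those of Nfatc1 and Ppp3cb, of Nfatc2 from 1 h and of Rcan2 from 3 h did not pass in every set with a library left out.

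The stretch effect of differentiated cells was also tested against that of myoblasts at each time. At 1 h edgeR found 0 of the 10 genes and 0% of all 16299 genes to differ, DESeq2 found 0 of the 10 and 16 of all genes, and 2 of the 10 had an unadjusted p below 0.05 by each tool, beside 4.33% of all genes by edgeR. DESeq2 gave 1 of the 10 no adjusted p in this comparison. At 3 h edgeR and DESeq2 found 0 of the 10, with 1.79% of all genes differing by edgeR, and 2 of the 10 had an unadjusted p below 0.05 by each tool, beside 13.5% of all genes by edgeR. Nfatc2, called in both stages at 3 h, differed there by 0.01 (SE 0.312). At 6 h 2 of the 10 differed, where 5.18% of all genes did: Nfatc1 by -0.30 (SE 0.0632, edgeR adjusted p 0.0130) and Nfatc2 by -1.03 (SE 0.254, edgeR adjusted p 0.0267). The difference of Nfatc2 no longer passed without non-stretched replicate 7 of the myoblasts, non-stretched replicate 8 of the differentiated cells or stretched replicate 7 of the differentiated cells, when the highest edgeR adjusted p was 0.0543. With replicate numbers as blocks it did not pass either (-1.05, edgeR adjusted p 0.0811), and DESeq2 gave it no adjusted p.

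The other windows held 4 matches to GGAAA for Ppp3cb, 2 for Nfat5, 2 in window 1 of 3 windows of Rcan2, 1 in window 1 of 2 windows of Nfatc3 and none for Ppp3r1. Window 3 of Rcan2, at its innermost start, held TGANTCA at -25.

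Genes around the pathway were taken as lists, and levels within a list were compared per kilobase of exon in non-stretched cells. Among calcineurin inhibitors and anchors Ppia stood highest, with means of 476 CPM per kilobase (myoblasts) and 285 (differentiated cells), and 15.9% of its stretches occur in other genes. Atp2a2 (77.4 CPM per kilobase) led the store-operated and stored calcium genes in myoblasts and Atp2a1 (232) in differentiated cells. Among NFAT kinases and partners Gsk3a (33.6) was highest in myoblasts and Csnk1a1 (46.2) in differentiated cells.

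At 3 h by adjusted p below 0.05 alone, edgeR counted 3 of 6 NFAT kinases and partners tested in each stage, all higher, where 31.9% (myoblasts) and 22.2% (differentiated cells) of all genes passed. The medians of this list were 0.09 and 0.11, beside -0.01 and 0.00 for all genes. At 6 h 1 was higher and 2 were lower in myoblasts, where 27.2% of all genes passed, with a median of 0.02. For differentiated cells at 6 h edgeR counted 0, DESeq2 1, and 2 of the 6 had an unadjusted p below 0.05 by edgeR, beside 35.8% of all genes. Of the calcium genes 2 of 12 were higher and 4 lower in myoblasts at 3 h by the same limit, with a median of -0.09, and 4 of 11 were higher and 2 lower at 6 h, with a median of -0.03 (31.9% and 27.2% of all genes passed). In differentiated cells 1 of 12 was lower at 3 h and 1 of 12 at 6 h, where 22.2% and 22.3% of all genes passed.

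Of the NFATc target genes Myf5 had the highest mean per kilobase in myoblasts (21.5 CPM per kilobase, with a range that overlapped that of Ptgs2) and Egr3 in differentiated cells (14.4). By both limits 2 of 6 of these target genes tested in myoblasts at 1 h were called, Ptgs2 and Nr4a1, against 1.25% of all genes. Ptgs2 had 95, 94.3, 84.9 and 86.8 CPM without stretch and 169, 179, 209 and 172 CPM with stretch, and Nr4a1 11.5, 11.8, 9.81 and 12.5 CPM and 22.9, 22, 27.5 and 23.4 CPM. Both pairs of groups stood apart, with log2 fold changes of 1.01 (SE 0.0657, edgeR adjusted p 1.09e-05) and 1.08 (SE 0.0821, adjusted p by edgeR 4.28e-05). For differentiated cells at 1 h the median of the 6 genes tested was 1.44, beside 0.00 for all genes, and it was 0.54 without stretched replicate 4, the library of B17. There stretched replicate 4 had 420 CPM of Ptgs2 and replicates 7, 8 and 9 had 74.8, 71.1 and 91.9 CPM, against 31.9, 33.4, 35.2 and 32.1 CPM without stretch. All stretched libraries were above the others, but with this spread the log2 fold change of 2.31 (SE 0.547) had an edgeR adjusted p of 0.116. Without replicate 4 it was 1.26 (edgeR adjusted p 1.15e-04), which is called. Nr4a1 had 180 CPM in replicate 4 and 46.8 to 50 CPM in the other stretched libraries, against 20.8 to 22.6 CPM without stretch. Its log2 fold change was 1.92 (edgeR adjusted p 0.0867), and 1.18 (edgeR adjusted p 2.12e-06) without replicate 4, which is called too. Egr2, at 111 CPM in replicate 4 and 26.9 to 30.1 CPM in the other stretched libraries, moved from 1.12 to 0.34 (edgeR adjusted p 0.0742) and did not pass. So edgeR called 0 of the 6 with replicate 4, where 0.27% of all 15538 genes were called, and 2 without it. DESeq2 called 1 with it, and 98 of all genes. The share of all genes called without replicate 4 is not given here. Replicate 4 also had the highest summed CPM of the markers of undifferentiated or dividing cells in its group, 675 beside 416, 374 and 420 in stretched replicates 7, 8 and 9 and 339 to 466 without stretch. The median log2 fold change of these 6 markers was 0.16 with replicate 4 and -0.04 without it, and their part in the values of the target genes was not tested.

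In myoblasts at 3 and 6 h edgeR and DESeq2 called 0 of 5 NFATc target genes tested by both limits, and 3 and 4 of the 5 had an unadjusted p below 0.05 by edgeR, beside 41.5% and 38.9% of all genes. By edgeR adjusted p alone 2 were higher at 3 h, where 31.9% of all genes passed, with a median of 0.05. At 6 h 2 were higher and 1 lower in myoblasts, where 27.2% of all genes passed, with a median of 0.00. At 3 h Ptgs2 was the 1 of 6 NFATc target genes called in differentiated cells, against 1.63% of all genes. It had 37.7, 35.9, 50.1 and 45.9 CPM without stretch and 54.1, 47.8, 82.0 and 84.2 CPM with stretch, which overlapped, and the log2 fold change was 0.66 (SE 0.180, edgeR adjusted p 0.0249). This call was lost when non-stretched replicate 7, non-stretched replicate 8, stretched replicate 9 or stretched replicate 10 was left out (0.53 to 0.61, edgeR adjusted p 0.0606 to 0.0694), and with all libraries of the stage in 1 model (edgeR adjusted p 0.272). At 6 h Egr2, 1 of 6 where 2.04% of all genes were called, was lower, from 19.4, 20.3, 25.9 and 21.7 CPM to 11.7, 13.9, 13.9 and 18.1 CPM, without overlap. Its log2 fold change was -0.61 (SE 0.127, edgeR adjusted p 0.00762), and the median of the 6 genes was -0.38. By edgeR adjusted p alone 1 of the 6 was higher and 3 were lower there, where 22.3% of all genes passed. Egr2 lost this call without non-stretched replicate 9 (-0.51) or stretched replicate 7 (-0.52) and with all libraries of the stage in 1 model (edgeR adjusted p 0.211).

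Of the NFAT5 target genes S100a4 had the highest mean per kilobase in both stages (2085 CPM per kilobase in myoblasts and 1545 in differentiated cells), and 49.2% of its stretches occur in other genes. At 6 h 1 of 7 tested was called in myoblasts, Hspa1b, against 2.17% of all genes, and 2 of 7 in differentiated cells, Hspa1b and Slc5a3, against 2.04%. Hspa1b had 128, 131, 106 and 110 CPM without and 385, 185, 392 and 164 CPM with stretch in myoblasts, and 101, 109, 89.4 and 101 CPM without and 265, 143, 245 and 118 CPM with stretch in differentiated cells. The stretched libraries were higher throughout, with replicates 7 and 9 highest in both stages. Log2 fold changes of Hspa1b were 1.26 (SE 0.257, edgeR adjusted p 0.00440) and 0.94 (SE 0.219, edgeR adjusted p 0.0123), but 68% of its stretches occur in other genes, most often in Hspa1a, so the gene of origin is uncertain. Slc5a3 in differentiated cells had 59.6, 57.4, 45.9 and 56.5 CPM without stretch and 101, 70.3, 125 and 65.6 CPM with stretch, without overlap. It rose by 0.72 (SE 0.179, edgeR adjusted p 0.0169), while Nfat5 itself had -0.02 in the same comparison. The call of Slc5a3 was lost without stretched replicate 7 (0.66, edgeR adjusted p 0.0504) or stretched replicate 9 (0.52). In myoblasts at 6 h Slc5a3 had a log2 fold change of 0.52 (SE 0.113, edgeR adjusted p 0.00633), below the fold limit, which it passed without stretched replicate 8 (0.60) or 10 (0.59).

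**Figure D5:**
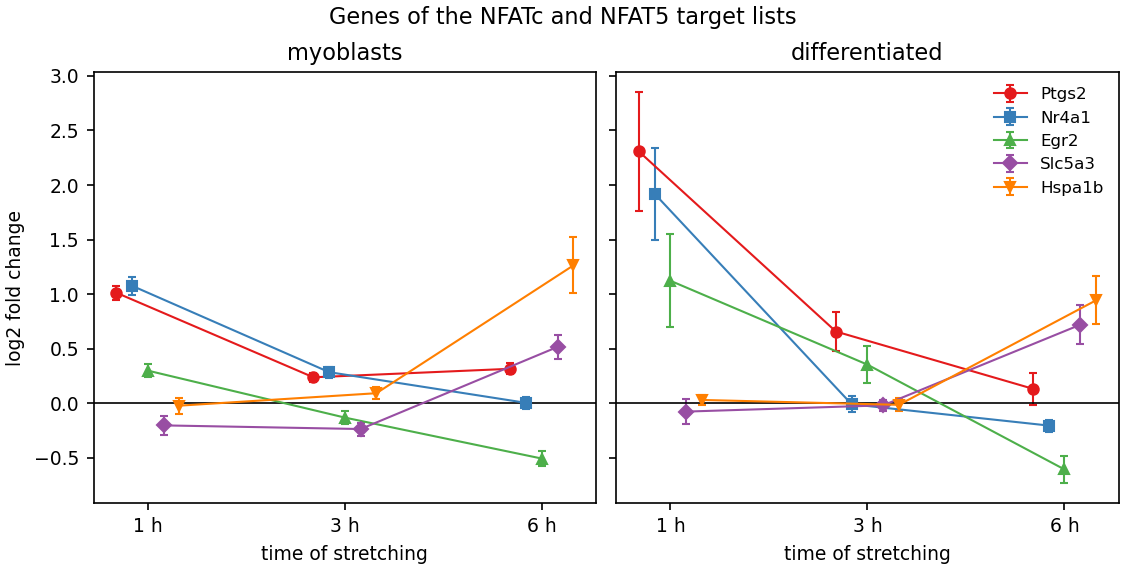
Log2 fold changes with SE of 3 NFATc target genes and 2 NFAT5 target genes. Ptgs2 reached 2.31 in differentiated cells at 1 h (1.26 without stretched replicate 4), and Hspa1b reached 1.26 in myoblasts at 6 h.

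Genes were ranked by the Pearson correlation of their log2 CPM with those of Nfatc2 over the 24 libraries of a stage. St3gal1 (0.933) and Epc1 (0.906) were closest to Nfatc2 in myoblasts and Trim24 (0.911) and Tbx18 (0.891) in differentiated cells. For Rcan1 the closest were Naa60 (0.849) in myoblasts and Timp2 (0.864) in differentiated cells. The libraries share times, stretch and experiments, so no p-value was attached to these correlations.

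These values are mRNA levels, so the phosphorylation of NFAT proteins, their place in the cell and calcineurin activity were not measured. Each comparison rests on 4 libraries against 4 from few experiments, and the 1 h stretched differentiated group includes a library of an experiment without a control of its own. Counts of Nfatc2 were low, and the SE of its log2 fold changes ran from 0.139 to 0.262. At 6 h the calls of Nfatc4 in myoblasts and of Rcan2 in differentiated cells, close to the fold limit, depended on single libraries. That of Nfatc4 also depended on the scaling and the model. Transcript forms were not analysed here.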

How the data were processed

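The deposited tables held a gene-level count for each of 47480 gene symbols in 24 libraries per stage, produced by the authors, and the source files are labelled "nobatch"; whether the counts were adjusted for batch is not given in the sources used here. Their methods name STAR, Salmon and the mm10 genome. Library totals ran from 48447318 to 77080730 counts, and at this depth a library held 19 to 181 counts of Nfatc2 and 4768 or more counts of Nfatc3. The 10 genes and the gene lists were chosen with earlier results of these data known. The lists were written from general knowledge of the pathway.

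Each comparison used the 8 libraries of a stage and time in edgeR 4.0.16 (R 4.3.3): filterByExpr, TMM, glmQLFit and glmQLFTest, with Benjamini-Hochberg correction over all genes tested. SE is the log2 fold change divided by the square root of F. A difference between times used the 24 libraries of a stage, and a difference between stages the 16 libraries of a time. CPM use TMM factors over all 48 libraries, and log2 CPM a prior count of 1. DESeq2 1.42.0 was the other tool. The remaining alternatives were RLE factors, library totals alone, no filter, 1 model per stage, a covariate for experiment, blocks by replicate number, the limit on adjusted p alone, and each library left out.

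Exon lengths are the union of exons in GENCODE vM21. Sequence sharing is the percentage of 31-base stretches of a gene's transcripts found in another gene. Genes of a list are named when called by both limits or highest in the list per kilobase of exon, except in 1 list of which only Ppp3cc is described, and likeness used genes with a mean count of at least 100. The code in 1 title, B231, was read as B31. Figures were drawn with matplotlib 3.10.9 in Python 3.11.15.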

Additional observations from a re-analysis of the deposited data

Results flagged for a closer look

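In 120 groups of 4 libraries, 10 genes in 12 groups, a library was set apart when its gap to the nearest value divided by the range exceeded a fixed limit, which chance alone gives in about 1 in 20 groups; 5 did. They were Nfatc1 in non-stretched myoblasts at 3 h, replicate 9 (ratio 0.951; 28.2 CPM where the others had 26.4), and Nfatc4 in myoblasts stretched for 3 h, replicate 10 (0.886; 2.31 CPM where the others had 3.27 to 3.39). Nfat5 in myoblasts stretched for 1 h, replicate 8, had a ratio of 0.846 (306 CPM where the others had 204 to 219). Nfatc3 in non-stretched differentiated cells gave 0.863 at 3 h, replicate 8 (91.6 CPM where the others had 88.7 to 89.1), and 0.850 at 6 h, replicate 9 (86.3 CPM where the others had 91.9 to 92.8).

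The stretch effect differed between comparisons by edgeR in 16 cases. In myoblasts between 6 and 1 h these were Rcan2 (-0.33) and Ppp3cb (-0.21), and between 6 and 3 h Nfatc2 (-1.09), Rcan2 (-0.34) and Ppp3cb (-0.24). In differentiated cells between 6 and 1 h they were Nfatc2 (-1.02), Nfatc4 (-0.57), Rcan2 (-0.56) and Ppp3cb (-0.15). Between 6 and 3 h they were Nfatc1 (-0.29), Nfatc2 (-2.14), Nfatc3 (0.18), Rcan2 (-0.41) and Ppp3cb (-0.16). Between differentiated cells and myoblasts at 6 h they were Nfatc1 (-0.30) and Nfatc2 (-1.03). The cause was not tested.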

How the results depend on the processing

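For the 10 genes, 900 log2 fold changes were taken under other tools, scalings, filters and models or without a library, all with both limits. Of these, 893 stayed as they were, called or not called, 7 became called and 0 changed direction past the limits. Of 1858 differences between comparisons, 1732 stayed as they were, passing or not, 107 no longer passed, 19 came to pass and 0 reversed.

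The number of the 10 genes called moved from 0 to 1 in myoblasts at 1 h, from 1 to 6 at 3 h and from 0 to 5 at 6 h when adjusted p by edgeR was the only limit, and in differentiated cells from 1 to 3 at 3 h and from 1 to 6 at 6 h. At 6 h in myoblasts it was 1 with library totals alone (Nfatc4, -0.60), 1 with all libraries of the stage in 1 model (Nfatc4, -0.58), and 0 to 1 with a library left out. At 6 h in differentiated cells it was 1 to 2 with a library left out. Scaling by library totals shifted the median of all genes by at most -0.05 (myoblasts, 3 h). With it, edgeR adjusted p was no longer below 0.05 for Nfatc3 in myoblasts at 1, 3 and 6 h (0.228, 0.407 and 0.0568), Ppp3r1 in myoblasts at 3 h (0.474), Ppp3ca in differentiated cells at 3 h (0.275) and Ppp3r1 in differentiated cells at 6 h (0.0505).

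Nfatc2 stayed called in every setting: leaving out a library gave 1.22 to 1.55 in myoblasts at 3 h, 1.13 to 1.54 in differentiated cells at 3 h and -0.86 to -0.64 at 6 h, where the edgeR adjusted p ran from 0.0183 to 0.0481. Without a library Nfatc4 ran from -0.68 to -0.51 in myoblasts at 6 h and from -0.56 to -0.50 in differentiated cells, and Rcan2 from -0.60 to -0.48 in differentiated cells at 6 h.

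Counts of genes whose stretch effect differed also moved. Between 6 and 1 h in myoblasts, 2 became 1 with library totals alone, 1 with no filter and 1 to 2 without a library, where Rcan2 ran from -0.41 to -0.26 (edgeR adjusted p 0.00900 to 0.119). Between 6 and 3 h, 3 became 4 with DESeq2 or with a covariate for experiment, 2 with library totals alone and 2 to 4 without a library, where Rcan2 ran from -0.40 to -0.28 (edgeR adjusted p 0.0143 to 0.0808). Of all genes, 4159 passed in that comparison by edgeR and 4304 by DESeq2. In differentiated cells between 6 and 1 h, 4 became 6 with DESeq2, 3 with RLE factors, 2 with no filter and 2 to 4 without a library, and Ppp3cb ran from -0.18 to -0.11 and Nfatc2 from -1.12 to -0.91. Of all genes, 1928 passed in that comparison by edgeR and 2254 by DESeq2. Between 6 and 3 h, 5 became 4 with library totals alone, 3 with no filter and 2 to 5 without a library, where Nfatc1 ran from -0.36 to -0.21, Rcan2 from -0.48 to -0.36 and Ppp3cb from -0.17 to -0.15. Between stages at 6 h, 2 became 1 with DESeq2, which gave Nfatc2 no adjusted p, and 1 to 2 without a library. There 842 of all genes passed by edgeR and 1334 by DESeq2. For the other settings the counts over all genes are not given here. The differences that passed in all settings were those of Ppp3cb in myoblasts, Nfatc2 between 6 and 3 h in both stages, Nfatc4 and Rcan2 between 6 and 1 h in differentiated cells, Nfatc3 between 6 and 3 h in differentiated cells, and Nfatc1 between stages at 6 h.

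Replicate numbers were not taken as pairs, because only 8 of 23 stretched libraries correlated best with the non-stretched library of their own number. Over all 23 same-numbered pairs the correlations ran from -0.04 to 0.153, and 6 were over 0.1. With the replicate block the counts called were 0, 1 and 0 in myoblasts and 0, 1 and 1 in differentiated cells, with Nfatc2 at 1.38, 1.35 and -0.76. With the replicate block the difference counts were 2 and 4 in myoblasts, 4 and 5 in differentiated cells, and 0, 0 and 1 between stages, where Nfatc2 had -1.05 (edgeR adjusted p 0.0811). The cause was not tested.

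The same settings were applied to the named list genes and to Myog, a choice made after seeing the data. Of 539 log2 fold changes, 504 stayed as they were, called or not called, 12 lost their call, 23 gained it and 0 reversed.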
